A study of Drosophila melanogaster with 9 samples.

Results

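Female flies fed a normal diet with added resveratrol were set against females fed the normal diet alone, to find which transcripts of the head and thorax the compound changes. The comparison used 6 of the 9 arrays of the series, 3 for each diet, and the 3 arrays of a restricted diet entered the same fit as a further group. All flies were females of Canton-S, a wild-type laboratory strain, aged 10 days, and the labels name no transgene or mutation. Each array held total RNA pooled from at least 75 females, and the 3 arrays of a diet were described as biological replicates. No source used here gives the resveratrol dose or what the diets were made of. A probe set counted as measured where its log2 level reached 4 on at least 3 of the 9 arrays, which 9401 of the 18769 non-control probe sets did. With 1 probe set kept for each gene, 8822 features were tested.

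Resveratrol is a polyphenol of grape skin that has been studied in yeast, worms, flies and mice as a possible mimic of a restricted diet, with sirtuin deacetylases, the AMP-activated kinase and cyclic nucleotide phosphodiesterases among its proposed targets. In adult flies, diet is known to act on digestive enzymes of the midgut, on the fat body, which is the counterpart of liver and fat tissue, and on hormones such as insulin-like peptides and juvenile hormone. The proteases of the fly midgut are mostly serine proteases of the trypsin and Jonah families, many of them encoded by clustered genes.

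Each array had 9295 to 9405 probe sets at or above log2 4. The markers of the labelled tissues were present: the mean log2 level of 20 neuron genes was 10.06 to 10.32 on normal-diet arrays and 10.05 to 10.23 with resveratrol, and that of 22 muscle structure genes was 12.66 to 12.86 and 12.55 to 12.69. Transcripts of the ovary, an organ of the abdomen, were measured as well. The eggshell gene Cp15 stood at log2 levels of 9.56, 8.41 and 8.90 on the normal diet and at 14.29, 13.54 and 9.35 with resveratrol. Its log2 change of 3.44 was the highest of the list of 23 genes that follows. Another eggshell gene, Cp18, had a log2 change of 0.04. The mean of 23 germline, ovary and eggshell genes was 6.52 to 7.87 on normal-diet arrays and 6.89 to 9.22 with resveratrol, so the ranges overlapped. Normal-diet replicate 2 had the lowest mean of 30 digestive proteases, 6.46 against 8.19 and 9.35 in the other two normal-diet arrays, and resveratrol arrays lay between 9.34 and 10.69. The 3′ to 5′ differences of the actin control probe sets, a sign of RNA quality, were 1.13 to 1.55 on the normal diet and 1.36 to 1.45 with resveratrol, while those of GAPDH were 0.62 to 0.69 and 0.71 to 0.76 and did not overlap. The part of these differences in the results was not tested, beyond the values given with and without the arrays concerned.

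Resveratrol changed few transcripts past the threshold, a limma adjusted p under 0.05. Of 8822 features, 20 passed (0.227%), 4 higher (0.0453%) and 16 lower (0.181%) with resveratrol. The rises were large in 3 of the 4, the predicted serine proteases CG11912 and CG5246 and the gene CG14219, and small in prune. Most of the falls were of less than 2-fold, 12 of the 16, and they included the transcription factors Kr-h1, hry and cwo. Of the 8822 features, 859 had an unadjusted limma p under 0.05, 390 higher and 469 lower. The counts at that level given below for gene lists are to be read beside this share. The sizes of the changes and the calls ran in different directions. A change of at least 2-fold was fitted for 133 features on the higher side and 14 on the lower side, and of these 3 and 4 passed. Whichever of the 9 arrays was left out, the count of 20 fell, to between 2 and 9, and a fit on the 6 arrays of these diets alone called 4. The median change over all features was -0.01 and the median standard error 0.10, so that the median 95% confidence interval reached 0.22 to either side.

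**Figure D1:**
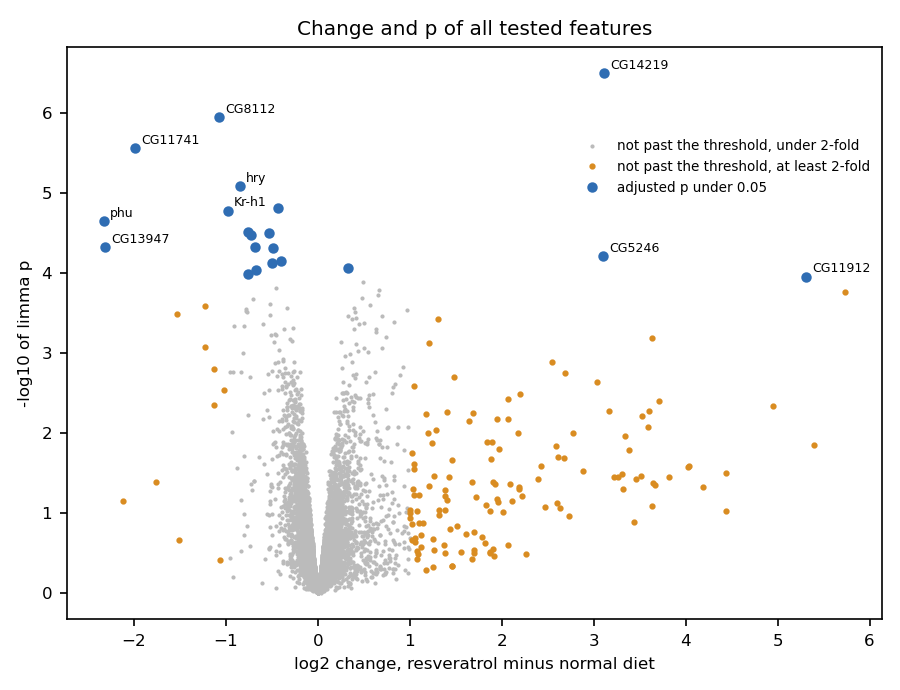
Each point is 1 of the 8822 features, with the log2 change, resveratrol minus normal diet, on the x axis and -log10 of the unadjusted limma p on the y axis. The 20 features past the threshold are large and blue, 16 of them left of 0, while most orange points, features of at least 2-fold that did not pass, lie right of 0.

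The predicted serine proteases CG11912 and CG5246 rose with resveratrol. CG11912 had log2 levels of 3.02, 2.86 and 4.80 on the normal diet and 10.30, 8.39 and 7.92 with resveratrol. Every resveratrol array lay far above the highest normal-diet array, and 2 of the normal-diet arrays were under log2 4, where GCRMA values depend most on the background model. With those arrays set to log2 4, it rose at least 24.2-fold. The fitted change, which uses the values under log2 4 as deposited, was 5.30 ± 0.74 (SE, n = 3 per diet, adjusted p = 0.0492), and ran from 4.59 without resveratrol replicate 1 to 5.92 without normal-diet replicate 3. It did not pass in any of the 9 fits that left out 1 array. CG5246 stood at 5.89, 5.35 and 5.68 against 8.71, 9.40 and 8.13, again with no overlap, and rose by 3.11 ± 0.40 (adjusted p = 0.0393), 8.61-fold. It passed without restricted-diet replicate 1 and in none of the other leave-one-out fits, with adjusted p values of up to 0.139. In RNA from a pooled body part, a higher level cannot be told apart from more cells of the type that makes the transcript, and a lower level from fewer such cells.

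CG14219 was measured at 3.04, 3.01 and 3.19 on the normal diet and at 5.76, 6.19 and 6.60 with resveratrol. All normal-diet arrays lay under log2 4 and all resveratrol arrays above it. It rose at least 4.55-fold, counted against log2 4, with an adjusted p of 0.00283, and it passed in all 9 fits with 1 array left out. The restricted-diet arrays, 7.24, 6.89 and 7.08, were higher still, although the difference between resveratrol and the restricted diet did not pass (-0.88, adjusted p = 0.0599). The remaining rise was pn (CG3461, prune), an eye-colour gene whose product belongs to the DHH phosphoesterase family. Its levels were 8.76, 8.76 and 8.71 on the normal diet and 9.10, 9.04 and 9.06 with resveratrol. That was a change of 0.33 ± 0.04 (adjusted p = 0.0455), small beside the others but with little spread within either diet.

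**Figure D2:**
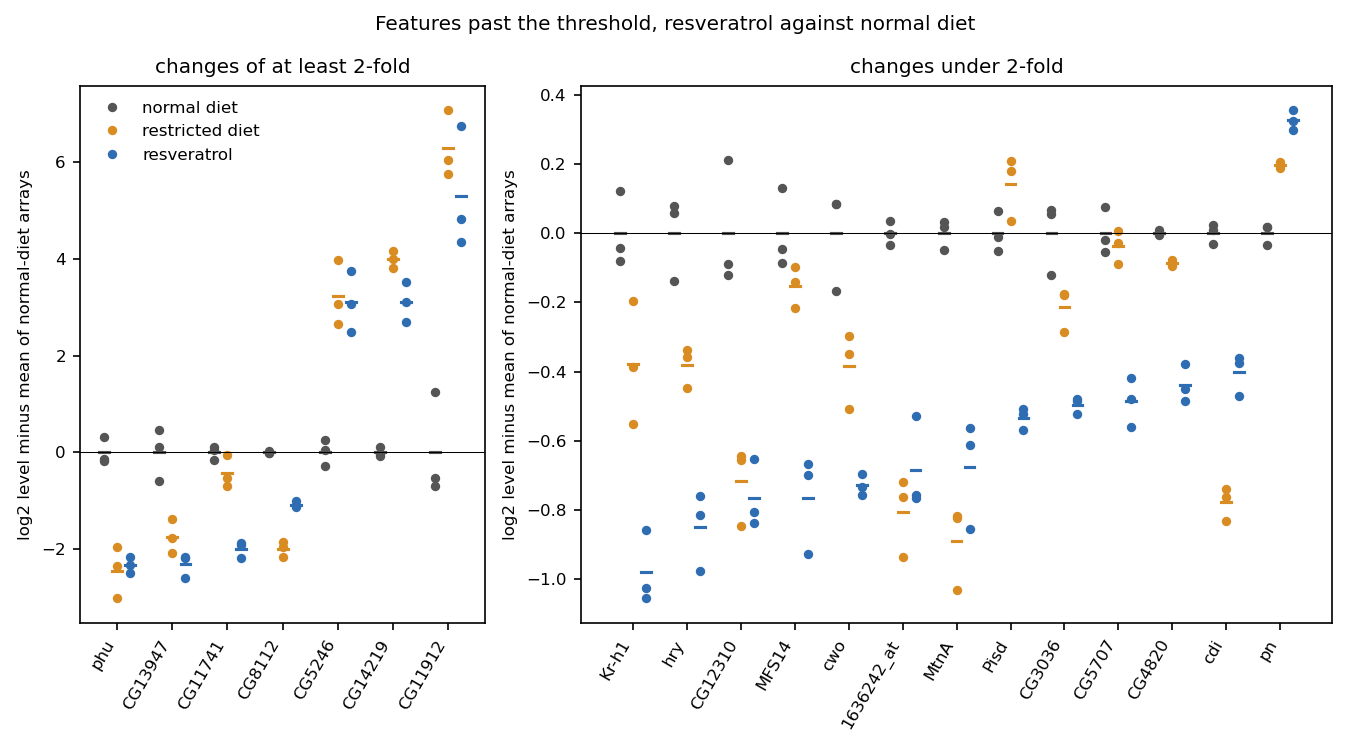
The 20 features past the threshold are plotted by array, as log2 level minus the mean of the normal-diet arrays; each point is 1 array, bars are group means, and the panels have different y axes. CG8112 and cdi with resveratrol lie between the normal and the restricted diet, while CG11741, Pisd and CG4820 with resveratrol lie below both.

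Of the falls, 4 were of at least 2-fold. phu (CG8147), of the alkaline phosphatase family, stood at 9.46, 8.99 and 8.96 on the normal diet and at 6.97, 6.80 and 6.65 with resveratrol. It fell by 2.33 (SE 0.26, adjusted p = 0.0286), with the restricted-diet arrays at 6.78, 6.12 and 7.17, as low as those with resveratrol. CG13947, one of the most abundant transcripts among the 20, went from 14.70, 13.65 and 14.35 to 11.62, 12.04 and 12.08 and fell by 2.32 (SE 0.29, adjusted p = 0.0332). In both genes every resveratrol array lay far below every normal-diet array. The restricted-diet arrays of CG13947 were at 12.45, 12.15 and 12.85, and resveratrol did not differ from those past the threshold (-0.57, adjusted p = 0.254). CG11741 stood at 10.22, 10.16 and 9.96 on the normal diet, at 9.42, 10.05 and 9.59 on the restricted diet and at 7.93, 8.20 and 8.24 with resveratrol. It fell by 1.99 (SE 0.17, adjusted p = 0.00810) against the normal diet and was also lower than on the restricted diet, by a log2 difference of -1.56 (adjusted p = 0.0276). It was the only fall of at least 2-fold among the 20 that also lay below the restricted diet by that test.

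CG8112 encodes a predicted sterol O-acyltransferase, the kind of enzyme that esterifies sterols for storage. Its levels were 9.38, 9.33 and 9.33 on the normal diet, 8.33, 8.22 and 8.25 with resveratrol and 7.18, 7.48 and 7.38 on the restricted diet. The 3 groups did not overlap, and resveratrol lay in the middle. It fell by 1.08 (SE 0.08, adjusted p = 0.00499) against the normal diet and stood 0.92 above the restricted diet (adjusted p = 0.0255). CG8112 and CG14219 were the features that passed in all 9 leave-one-out fits. CG11741 passed in 7 of them, and not without resveratrol replicate 1 or 2 (adjusted p of up to 0.0593). The other 17 failed in at least 6 of the 9, with adjusted p values of up to 0.181, while all 20 kept their sign. The fitted fold moved by over 1.5 times in 1 of them, CG11912.

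Transcription factors of the hormone and clock pathways were among the smaller falls. Kr-h1 (CG45074) is a zinc finger protein induced by juvenile hormone, the lipid hormone that controls metamorphosis and, in adult females, egg production. It stood at 11.16, 10.96 and 11.00 on the normal diet and at 9.98, 10.01 and 10.18 with resveratrol, and fell by 0.98 (SE 0.10, adjusted p = 0.0246). The restricted-diet arrays lay between, at 10.49, 10.84 and 10.65, and the difference of resveratrol from them also passed (-0.60, adjusted p = 0.0413). Of 11 juvenile hormone genes tested, Kr-h1 alone passed, and the median change of the list was 0.04 against -0.01 over all features. jhamt, the methyltransferase of the last steps of hormone synthesis, had a change of 0.32 (adjusted p = 0.443). Among the enzymes that degrade the hormone, the epoxide hydrolase gene Jheh2 had a change of 0.70 (adjusted p = 0.341) and the esterase gene Jhe of -0.73 (adjusted p = 0.497).

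hry (CG6494, hairy) and cwo (CG17100, clockwork orange) are both basic helix-loop-helix repressors. hry was measured at 13.76, 13.74 and 13.54 on the normal diet and at 12.92, 12.71 and 12.87 with resveratrol, and fell by 0.85 (SE 0.08, adjusted p = 0.0182). The restricted-diet arrays, 13.34, 13.23 and 13.32, lay between the other groups, and resveratrol was lower than those too (-0.47, adjusted p = 0.0415). cwo, which represses its own and other clock genes, went from 12.18, 12.18 and 11.93 to 11.37, 11.34 and 11.40. It fell by 0.73 (SE 0.09, adjusted p = 0.0302), and a second probe set of the gene fell by 0.97 (adjusted p = 0.0357). Among 12 circadian clock genes, cwo alone passed and 10 had negative changes, against 52.2% of all features, with a median of -0.08. The clock activator Clk had a change of -0.34 (adjusted p = 0.373) and the repressor vri -0.35 (adjusted p = 0.308). For both, the 3 resveratrol values lay below the 3 normal-diet values, as they did in 4 of the 12 clock genes and in 9.09% of all features. The labels give no time of day of collection.

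Enzymes, transporters and a metal-binding protein made up several further falls. MtnA (CG9470), a metallothionein that binds copper and other metals, was among the brightest transcripts at 14.45, 14.46 and 14.38 on the normal diet and 13.82, 13.57 and 13.87 with resveratrol. It fell by 0.68 (SE 0.09, adjusted p = 0.0459), and the 8 metallothionein and ferritin genes as a list had a median of -0.02. Pisd (CG5991), the phosphatidylserine decarboxylase that makes phosphatidylethanolamine in mitochondria, stood at 12.34, 12.22 and 12.26 on the normal diet, at 12.31, 12.48 and 12.45 on the restricted diet and at 11.75, 11.71 and 11.76 with resveratrol. Its resveratrol arrays lay below all other arrays, and it fell by 0.53 (SE 0.06, adjusted p = 0.0302). MFS14 (CG15095), a transporter of the major facilitator superfamily, averaged 11.40 on the normal diet and 10.64 with resveratrol and fell by 0.76 (SE 0.09, adjusted p = 0.0302). The protein kinase gene cdi (CG6027) fell by 0.40 (SE 0.05, adjusted p = 0.0414), from 9.21, 9.20 and 9.16 to 8.72, 8.82 and 8.83, and its restricted-diet arrays were lower again at 8.43, 8.36 and 8.45. The genes CG12310, CG3036, CG5707 and CG4820 fell by 0.76, 0.50, 0.49 and 0.44 (adjusted p from 0.0246 to 0.0479). The last feature, a single probe set, had no gene in the annotation used here and fell by 0.68 (adjusted p = 0.0332).

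For the 20 features the level with resveratrol was also tested against the restricted diet. That test shares the resveratrol arrays with the first comparison, and the restricted-diet comparison shares the normal-diet arrays, so these calls are not independent. Of the 20, 14 also differed between the restricted and the normal diet past the threshold, against 18.2% of all features. All 14 changed in the same direction on the restricted diet as with resveratrol. In 11 of the 20 the resveratrol values lay outside all 6 other arrays, which held for 2.71% of all features. Of these 11, 10 lay below and 1, pn, above. The 20 were called for a difference from the normal diet, so a higher share than among all features was built in. Of the 1362 features whose resveratrol and normal-diet values did not overlap, 239 had resveratrol outside all 6 other arrays. Of the 20, 9 differed between resveratrol and the restricted diet past the threshold, against 2.54% of all features. Resveratrol was the lowest of the 3 diets in 7 of these 9, CG11741, Kr-h1, hry, MFS14, Pisd, CG5707 and CG4820, and lay between the other diets in 2, CG8112 and cdi. The count of 9 became 2 when normal-diet replicate 1 was left out, 3 when restricted-diet replicate 1 or 2 was, and 0 without restricted-diet replicate 3, resveratrol replicate 2 or resveratrol replicate 3, with 13 or 14 of the 20 then at an unadjusted limma p under 0.05. Pisd had a change of -0.53 with resveratrol and of 0.14 on the restricted diet (adjusted p = 0.142), both against the normal diet. MFS14 had -0.76 and -0.15 (adjusted p = 0.246), CG5707 -0.49 and -0.04 (adjusted p = 0.674), and CG4820 -0.44 and -0.09 (adjusted p = 0.209). For CG11912 the changes were 5.30 and 6.28, for CG5246 3.11 and 3.23, and for phu -2.33 and -2.45, and in none of these 3 did resveratrol and the restricted diet differ past the threshold (adjusted p from 0.423 to 0.857). A difference that misses the threshold does not show that the levels were alike.

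The digestive proteases had a wide spread between normal-diet arrays. Of 30 tested, CG11912 and CG5246 rose, 26 had positive changes (47.6% of all features did), and in 13 the 3 resveratrol values lay above the 3 normal-diet values (6.35% of all features). Ser6 and Jon66Ci lay under log2 4 on all normal-diet arrays, so they entered the test only through arrays of the other diets. Both were among the 26, and Ser6 was among the 13, so these counts are in part built in. The median change of the 30 was 1.63, or 0.58 without normal-diet replicate 2 and 2.30 without normal-diet replicate 3. All members of the list were chosen with earlier results of these data known. For the 7 CG-numbered members the median was 4.04. Those 7 held the 2 calls and were all positive, with the resveratrol values above the normal-diet values in 5. The counts over the 30, and those of the other 23, thus rest in part on that choice. For the other 23, Jonah, trypsin and Ser genes, the median was 0.75, or 0.20 without normal-diet replicate 2, with 19 positive and 0 past the threshold in limma. Among these 23 the smallest adjusted p was 0.194, and the resveratrol values lay above the normal-diet values in 8. The median log2 level of the 23 was 9.23, 4.86 and 10.22 on the normal-diet arrays and 10.38, 9.56 and 9.21 with resveratrol. Only normal-diet replicate 2 stood far from the others in that measure, and the remaining groups overlapped. Of the 12 Jonah genes, 0 passed, and their median of 0.35 became 0.10 without that array; the 10 trypsin genes, with 0 past the threshold, had a median of 1.01 that became 0.44.

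**Figure D3:**
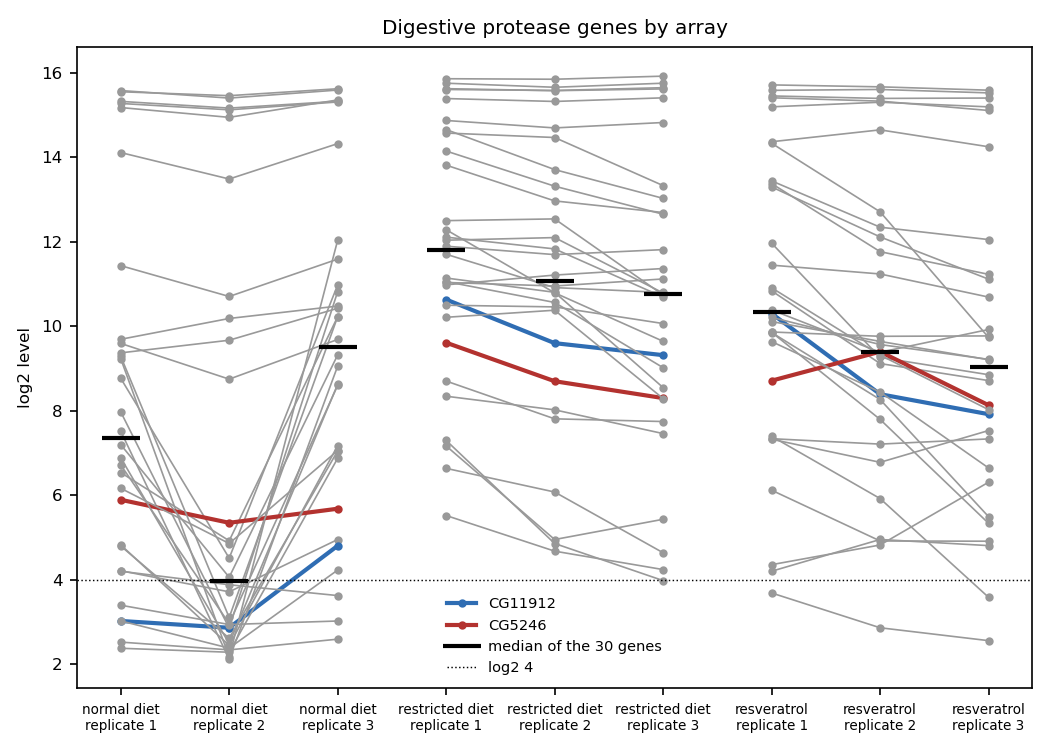
The log2 levels of 30 digestive protease genes are shown on each of the 9 arrays; lines join the values of a gene, black bars are the median of the 30 genes, and the dotted line marks log2 4. The normal-diet arrays spread widely, with replicate 2 lowest, while the restricted-diet and resveratrol arrays sit closer together; CG11912 and CG5246 are coloured.

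Among genes whose groups did not overlap, the largest positive changes that did not pass were those of CG17571, CG11911, Jon25Biii, CG7916, CG7953, CG10472, mag, Npc2e and lambdaTry. CG17571, a predicted serine protease, stood at 4.21, 3.71 and 4.95 on the normal diet and at 11.96, 9.26 and 8.85 with resveratrol, a change of 5.73 (adjusted p = 0.0642) that ran from 4.76 without resveratrol replicate 1 to 6.32 without resveratrol replicate 3. Jon25Biii, a Jonah protease, stood at 6.54, 4.92 and 10.22 against 13.29, 12.11 and 11.11, a change of 4.95 (adjusted p = 0.221), or 3.79 without normal-diet replicate 2 and 6.44 without normal-diet replicate 3. CG11911 stood at 7.97, 2.85 and 10.82 against 13.44, 12.34 and 12.05, a change of 5.39 (adjusted p = 0.338), or 3.21 and 7.20 without those same arrays. In the last 2, normal-diet replicate 3 lay nearest to the resveratrol arrays and normal-diet replicate 2 far below. The changes of CG10472, CG7916, CG7953 and the trypsin lambdaTry were 4.04, 4.43, 4.19 and 3.67, and became 2.25, 2.24, 1.73 and 1.61 without normal-diet replicate 2. mag, a gut lipase that also cleaves cholesterol esters, had a change of 4.02 and Npc2e, of a family of sterol-binding proteins, 3.71, which became 2.43 and 2.48 without that array (adjusted p with all arrays 0.431 and 0.209). The Jonah genes Jon99Fi and Jon44E had changes of like size, 4.44 and 3.82 (adjusted p = 0.603 and 0.467), with groups that overlapped. They became 1.62 without normal-diet replicate 2 for Jon99Fi and 2.72 without resveratrol replicate 1 for Jon44E.

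Other gut genes gave a mixed picture. Of 13 midgut markers, MtnA fell and 12 did not pass, 9 changes were positive, and the median was 0.14. Their mean log2 level was 7.55 to 8.14 on the normal diet and 8.08 to 8.37 with resveratrol, while the log2 of their summed level was 14.69 to 14.73 and 14.27 to 14.40, a sum in which the bright MtnA weighs most. The junction genes mesh, Tsp2A and Ssk, which mark the midgut epithelium, had changes of 0.14, 0.25 and 0.03, the last of which was -0.01 with arrays centred on their median. The endodermal transcription factor gene GATAe stood at 8.14, 7.54 and 7.66 on the normal diet and at 6.96, 7.17 and 6.68 with resveratrol, a change of -0.84 (adjusted p = 0.160). The restricted-diet arrays were at 8.14, 8.25 and 7.97, and resveratrol differed from those (-1.18, adjusted p = 0.0390). The proton pump subunit gene Vha100-4 was the only midgut marker under log2 4 on all normal-diet arrays, at 3.44, 2.20 and 3.82, with 5.21, 3.58 and 2.90 under resveratrol. The part of a different amount of gut tissue in the protease result was not tested.

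Of 8 alkaline phosphatases, phu fell and 7 did not pass. Alp6 stood at 4.70, 2.56 and 5.42 on the normal diet and 7.54, 7.23 and 7.01 with resveratrol, a change of 3.04 (adjusted p = 0.176), and Alp5 had a change of 3.16 (adjusted p = 0.226). Without normal-diet replicate 2 these were 2.20 and 2.58, and without normal-diet replicate 3 they were 3.63 and 4.10. So phu and these paralogs had changes of opposite sign. Of the 8 changes, 6 were positive, and Alp2 had a negative one as phu did (-0.81, adjusted p = 0.615). The list's median of 0.98 became 0.34 without normal-diet replicate 2. Among 14 sugar-digesting enzymes 0 passed and 4 had an unadjusted p under 0.05. The maltase Mal-A4 had a change of 1.97 (adjusted p = 0.345), or 1.17 without normal-diet replicate 2, trehalase (Treh) of 0.22 (adjusted p = 0.401) and the maltase Mal-B2 of -0.29 (adjusted p = 0.337). The median of 0.18 became -0.02 without normal-diet replicate 2.

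Among genes whose groups did not overlap, the largest negative changes that did not pass were smaller in size. Nmdmc (CG18466), a mitochondrial folate enzyme, stood at 10.29, 10.06 and 10.98 on the normal diet and at 9.10, 8.72 and 8.93 with resveratrol, a change of -1.53 (adjusted p = 0.0751). Dr (CG1897), a homeobox transcription factor, stood at 9.57, 9.79 and 9.26 against 7.93, 8.57 and 8.45, a change of -1.22 (adjusted p = 0.0746). Neither pair of groups overlapped. CG13659 had a change of -1.23 (adjusted p = 0.110), the neuropeptide gene CNMa -1.13 (adjusted p = 0.221), the neprilysin-like peptidase gene Nepl4 -1.13 (adjusted p = 0.160) and the cuticle protein gene Cpr11B -1.02 (adjusted p = 0.192). Of 12 one-carbon genes, Nmdmc among them, 0 passed and 3 had an unadjusted p under 0.05. Gnmt, the glycine N-methyltransferase, had the highest change of that list at 1.68 (adjusted p = 0.231), from 7.37, 8.48 and 8.55 to 10.68, 9.22 and 9.55, and the median was 0.02. Of 17 Cpr cuticle protein genes 0 passed (2 at an unadjusted p under 0.05, median -0.04), and Cpr72Ec had a change of -0.49 (adjusted p = 0.293). The 2 Twdl cuticle protein genes did not pass either (median 0.03).

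Of 5 secreted fat body products, 3 lay apart between the diets and 2 overlapped, and 0 passed. fit (CG17820), a secreted fat body protein of females, stood at 14.67, 14.62 and 14.68 on the normal diet and at 15.38, 15.31 and 15.23 with resveratrol, a change of 0.65 (adjusted p = 0.0662). The larval serum protein gene Lsp2 stood at 10.63, 9.59 and 10.43 against 14.29, 11.95 and 12.46, a change of 2.69 (adjusted p = 0.160), or 1.99 without resveratrol replicate 1. Obp99b stood at 8.92, 8.97 and 9.26 against 10.31, 10.36 and 10.00, a change of 1.17 (adjusted p = 0.236). In these 3 the groups did not overlap, as in 15.4% of all features. apolpp, the precursor of the main lipoprotein, had a change of 0.05 and Lpin, a phosphatidate phosphatase, 0.07. Of the 5, 3 had an unadjusted p under 0.05 in limma, and the median of 0.65 kept between 0.61 and 0.69 with any 1 array left out. Of 9 fat body markers 0 passed, 5 had an unadjusted p under 0.05, and the median was 0.09. Changes were positive in 7, up to 2.69 for Lsp2, and negative in 2. The member with the smallest p, CG7203, had a change of -0.43 (adjusted p = 0.160), from 12.14, 11.94 and 12.03 to 11.42, 11.66 and 11.74, and sxe2 had -0.10 (adjusted p = 0.903). The mean log2 level of the 9 markers was 11.74 to 11.89 on the normal diet and 12.06 to 12.20 with resveratrol, a difference in which Lsp2 weighs most. The yolk protein genes Yp1, Yp2 and Yp3 had changes of 0.00, 0.12 and 0.07, and Yp1 sat at 16.31 on all 6 arrays, at the ceiling of the scale, where no change can be read. Yp2 and Yp3 averaged 16.09 and 16.15 on the normal diet and 16.21 and 16.23 with resveratrol. Both lay near that ceiling, where changes may be understated.

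Among 18 lipid synthesis genes 0 passed and 6 had an unadjusted p under 0.05. Agpat2, an acyltransferase of glycerolipid synthesis, stood at 8.24, 8.56 and 8.20 on the normal diet and 9.06, 8.95 and 8.99 with resveratrol, a change of 0.67 (adjusted p = 0.0626). The glycerol-3-phosphate acyltransferase gene mino had a change of 0.35 (adjusted p = 0.125) and malic enzyme (Men), a source of NADPH for fatty acid synthesis, 0.30 (adjusted p = 0.128). The list's median was 0.09. In these 3 genes, named as those of the smallest p, and in 6 of the 18 in all, the resveratrol values lay above the normal-diet values, against 6.35% of all features. Of 18 genes of lipid storage and breakdown 0 passed, 6 had an unadjusted p under 0.05, and the median was 0.14. The triglyceride lipase gene bmm stood at 11.28, 11.29 and 11.24 against 11.54, 11.66 and 11.54, a change of 0.31 (adjusted p = 0.194), and was higher than on the restricted diet by 0.43 (adjusted p = 0.0413). Sodh1, a sorbitol dehydrogenase, had a change of 0.56 (adjusted p = 0.222) and the lipase Lip4 -0.39 (adjusted p = 0.181). Of 16 genes of sterol transport and esterification CG8112 fell and 15 did not pass, while 9 had an unadjusted limma p under 0.05. The resveratrol values lay above the normal-diet values in 5 and below in 4, against 6.35% and 9.09% of all features. Changes ran from -1.08 for CG8112 to 4.02 for mag, 8 positive and 8 negative. Npc2g had a change of -0.20 (adjusted p = 0.226), and the list's median was 0.02.

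The listed genes tied to the proposed targets of resveratrol did not pass. Of 13 sirtuin, NAD, p53 and AMPK genes 0 passed in limma, 1 had an unadjusted p under 0.05, 10 had negative changes, and the median was -0.06 against -0.01 over all features. Sirt1 stood at 10.87, 11.04 and 10.87 on the normal diet and at 10.84, 10.91 and 10.87 with resveratrol, a change of -0.05 with a 95% confidence interval from -0.19 to 0.08 (adjusted p = 0.829). Its groups overlapped. p53 stood at 8.03, 8.04 and 7.97 against 7.89, 7.74 and 7.53, a change of -0.29 with an interval from -0.56 to -0.02 (adjusted p = 0.476), and the mitochondrial sirtuin Sirt4 had -0.22 (adjusted p = 0.593). AMPKalpha, the catalytic subunit of the AMP-activated kinase, had a change of -0.04 with an interval from -0.21 to 0.14, and its gamma subunit SNF4Agamma -0.06 with an interval from -0.17 to 0.04. These are transcript levels, and the activity of the enzymes was not measured. Of 6 cyclic nucleotide phosphodiesterases 0 passed and 0 had an unadjusted p under 0.05, with a median of -0.02. The phosphoesterase gene pn, which passed, was not on that list. dnc and Pde11 had changes of -0.10 (interval -0.33 to 0.14) and -0.08 (interval -0.27 to 0.12).

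In the list of insulin, TOR and FOXO genes, 0 of 16 passed and 2 had an unadjusted p under 0.05, with a median of -0.01. Ilp5, an insulin-like peptide made in brain neurosecretory cells, stood at 7.65, 7.42 and 7.28 on the normal diet and at 8.20, 7.91 and 8.14 with resveratrol, a change of 0.63 (adjusted p = 0.0883). scyl, an inhibitor of TOR signalling, stood at 12.98, 12.99 and 12.96 against 12.73, 12.62 and 12.65, a change of -0.30 (adjusted p = 0.0972). In neither did the groups overlap. The insulin receptor InR had a change of -0.31 with an interval from -0.70 to 0.08 (adjusted p = 0.617). The transcription factor gene foxo had a change of 0.02 with an interval from -0.14 to 0.18 (adjusted p = 0.941), while it differed between resveratrol and the restricted diet (0.36, adjusted p = 0.0474).

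**Figure D4:**
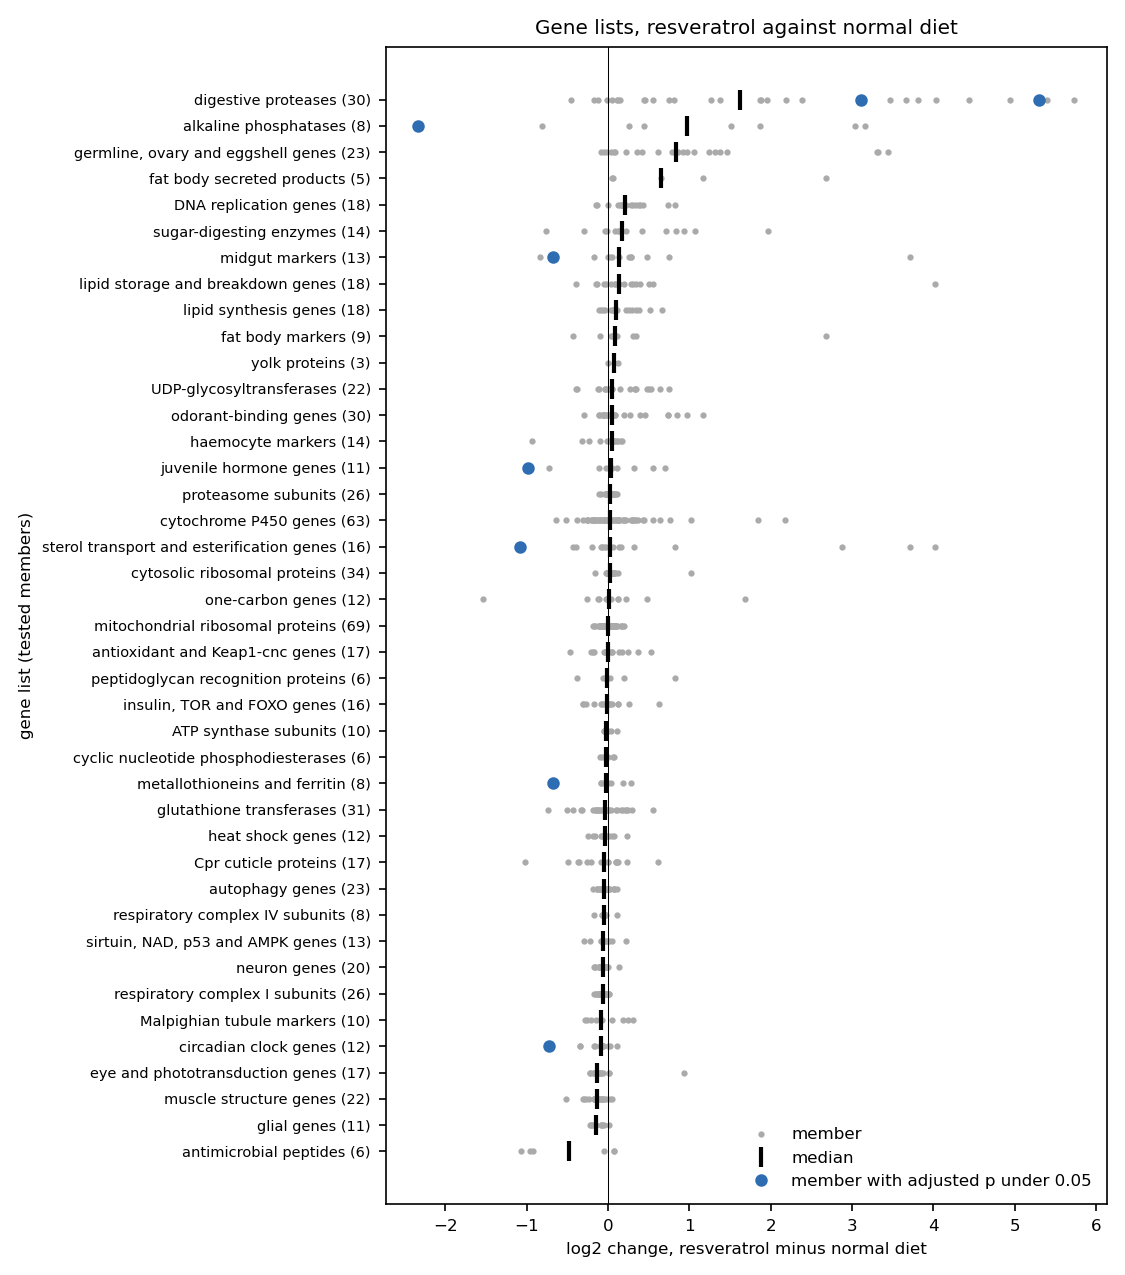
The log2 changes of the tested members of 41 gene lists with at least 3 members are shown, resveratrol minus normal diet; grey points are members, black bars the median of a list, and blue points members past the threshold. Digestive proteases, alkaline phosphatases, germline genes and fat body products have medians of 1.63, 0.98, 0.84 and 0.65, and most other medians lie within 0.2 of 0.

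Of 23 germline, ovary and eggshell genes 0 passed, 1 had an unadjusted p under 0.05, and 20 had positive changes. Cp38, an eggshell protein gene, stood at 6.39, 8.31 and 9.80 on the normal diet and at 11.64, 12.66 and 10.12 with resveratrol, a change of 3.30 (adjusted p = 0.460). piwi, a germline small-RNA gene, stood at 5.25, 4.11 and 6.43 against 7.07, 6.99 and 5.87, a change of 1.38 (adjusted p = 0.518). The eggshell gene Cp36 had a change of 3.32 (adjusted p = 0.514). Of the other eggshell genes, Cp15, Cp19, Cp16 and Cp18 had changes of 3.44, 0.62, 0.36 and 0.04. Vm26Aa and Vm34Ca had 1.46 and 0.98. Cp38 and Cp36 had 2.42 and 2.38 without normal-diet replicate 1, and 4.12 and 4.37 when normal-diet replicate 3 was dropped instead. The germline list's median of 0.84 became 0.09 without resveratrol replicate 1 and 1.53 without resveratrol replicate 3. The germline factor gene bam was the only member under log2 4 on all normal-diet arrays, at 2.64, 2.65 and 3.05, with 4.07, 4.37 and 2.66 under resveratrol. The log2 of the summed level of the list was 12.96 to 13.98 on the normal diet and 13.33 to 15.61 with resveratrol. With the mean of this list as a covariate, 11 features passed, 7 of them among the 20, and the part of ovary RNA in the results beyond that was not tested. Of 18 DNA replication genes 0 passed and 2 had an unadjusted p under 0.05. PCNA had a change of 0.73 (adjusted p = 0.745), which was 0.35 without resveratrol replicate 1, 1.43 without resveratrol replicate 3 and 0.12 with the germline covariate. Psf1 had a change of 0.28 (adjusted p = 0.194), and the list's median of 0.21 became 0.01 without normal-diet replicate 1 and 0.64 without resveratrol replicate 3, and was -0.13 with the germline covariate.

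**Figure D5:**
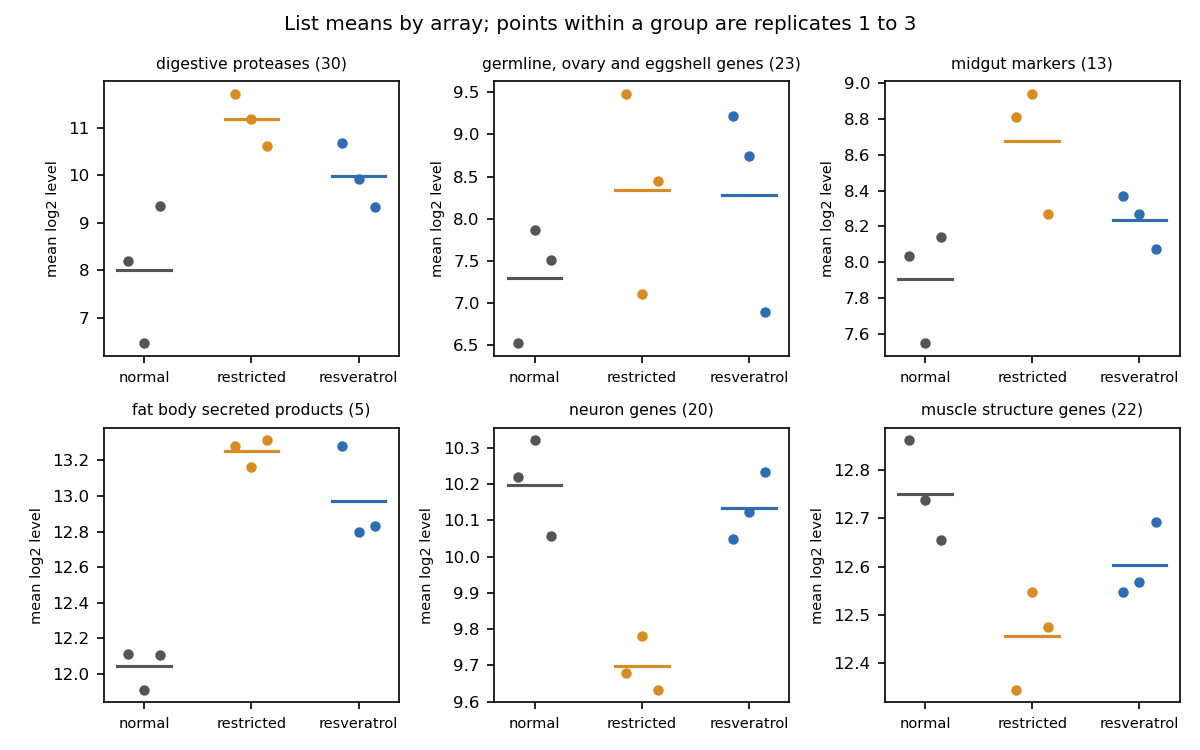
The mean log2 level of 6 gene lists is plotted for each array, 1 point per array, with bars for the means of the diets; the y axes differ and do not start at 0. Digestive protease means on the normal diet reach from 6.46 to 9.35, and germline means overlap between all diets, while those of 5 fat body products are 11.91 to 12.11 on the normal diet and 12.80 to 13.28 with resveratrol.

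Lists of detoxification and stress genes held no call other than MtnA, described above. Of 31 glutathione transferases 0 passed (7 at an unadjusted p under 0.05, median -0.04); GstE3 had a change of 0.55 (adjusted p = 0.197), GstE11 of -0.43 (adjusted p = 0.117) and GstD9 of -0.33 (adjusted p = 0.274). Of 63 cytochrome P450 genes 0 passed (median 0.03), and 16 had an unadjusted limma p under 0.05, against 859 of all 8822 features. The resveratrol values lay above the normal-diet values in 11 and below in 5, against 6.35% and 9.09% of all features. Cyp4d8 had a change of 0.56 and Cyp9b1 of -0.38 (adjusted p = 0.162 for both), and Cyp18a1, which inactivates the hormone ecdysone, had 0.37 (adjusted p = 0.209). Of 22 UDP-glycosyltransferases 0 passed (2 at an unadjusted p under 0.05, median 0.05), with Ugt35C1 at 0.76 and Ugt301D1 at -0.40. Of 17 antioxidant and Keap1-cnc genes 0 passed (5 at an unadjusted p under 0.05, median 0.00). The peroxiredoxin gene Prx6c stood at 9.68, 9.86 and 9.79 on the normal diet and 10.43, 10.28 and 10.19 with resveratrol, a change of 0.52 (adjusted p = 0.176). Gclm, a subunit of the enzyme that starts glutathione synthesis, had a change of -0.47 (adjusted p = 0.143) and the small Maf factor maf-S of -0.19 (adjusted p = 0.336). Of 12 heat shock genes 0 passed (1 at an unadjusted p under 0.05, median -0.04), and of 23 autophagy genes 0 passed (1 at an unadjusted p under 0.05, median -0.05), with Atg12 at -0.18 (adjusted p = 0.322). The Turandot stress gene TotC ranged from 9.79 to 12.19 on the normal diet and from 9.91 to 13.29 with resveratrol, and its spread exceeded its change of 0.73.

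Immune and odorant-binding genes also stayed below the threshold. Of 6 peptidoglycan recognition proteins 0 passed (1 at an unadjusted p under 0.05, median -0.01). PGRP-SC2, an enzyme that cleaves bacterial peptidoglycan in the gut, stood at 8.10, 8.38 and 8.54 on the normal diet, at 9.40, 9.02 and 9.08 with resveratrol and at 10.50, 10.48 and 10.28 on the restricted diet. The change was 0.83 (adjusted p = 0.0794), and resveratrol lay below the restricted diet by a log2 difference of -1.25 (adjusted p = 0.0276). Of 6 antimicrobial peptide genes 0 passed and 0 had an unadjusted p under 0.05; Mtk ranged from 10.89 to 14.57 on the normal diet and from 10.75 to 12.96 with resveratrol. The list's median of -0.48 became 0.12 without normal-diet replicate 2. Of 30 odorant-binding genes 0 passed and 7 had an unadjusted p under 0.05. Obp99a stood at 12.79, 12.53 and 12.88 against 13.90, 13.59 and 13.60, a change of 0.97 (adjusted p = 0.0746), Obp56h had 0.75 (adjusted p = 0.0937) and Obp49a 0.40 (adjusted p = 0.0833), and the list's median was 0.05. Of 14 haemocyte markers 0 passed (2 at an unadjusted p under 0.05, median 0.04); the phagocytic receptor gene NimC1 had a change of -0.93 (adjusted p = 0.296) and the GATA factor gene srp -0.32 (adjusted p = 0.301).

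Genes of the labelled tissues had small negative medians with no call. Of 20 neuron genes 0 passed, 1 had an unadjusted p under 0.05, 18 had negative changes and the median was -0.06. unc-13, a priming factor of synaptic vesicles, had a change of -0.18 (adjusted p = 0.491) and the neuronal RNA-binding protein gene elav -0.11 (adjusted p = 0.673). Of 17 eye and phototransduction genes 0 passed and 5 had an unadjusted p under 0.05, with a median of -0.13. The G protein subunit gene Galphaq stood at 12.09, 12.13 and 12.02 on the normal diet and 11.81, 11.89 and 11.89 with resveratrol, a change of -0.22 (adjusted p = 0.194), and the channel gene trpl and the arrestin gene Arr2 had -0.22 and -0.16. Of 11 glial genes 0 passed and 0 had an unadjusted p under 0.05 (median -0.15), with the sodium pump subunit gene nrv2 at -0.22. Of 22 muscle structure genes 0 passed and 6 had an unadjusted p under 0.05, with 20 negative changes, a median of -0.14, and TpnC41C, a troponin C, at -0.29 (adjusted p = 0.221). All 3 resveratrol values lay below the normal-diet values in 8 of the 22, against 9.09% of all features. Of 10 Malpighian tubule markers 0 passed (2 at an unadjusted p under 0.05, median -0.08), and the 1 tested male reproductive gene did not pass.

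Lists of core cell machinery held no call. Of 69 mitochondrial ribosomal proteins 0 passed (3 at an unadjusted p under 0.05, median 0.00), and of 34 cytosolic ribosomal proteins 0 passed (0 at an unadjusted p under 0.05, median 0.02). Of 26 proteasome subunits 0 passed (0 at an unadjusted p under 0.05, median 0.03). Of 26 subunits of respiratory complex I 0 passed (0 at an unadjusted p under 0.05, median -0.07), while 24 of the 26 changes were negative, against 52.2% of all features, and all 3 resveratrol values lay below the normal-diet values in 6 of the 26, against 9.09% of all features. Of 8 subunits of complex IV 0 passed (1 at an unadjusted p under 0.05, median -0.05), and of 10 of ATP synthase 0 (1, median -0.02). For ND-51, the flavoprotein subunit of complex I, the change was -0.10 with an interval from -0.24 to 0.04. The intervals of such abundant transcripts were narrow, and for RpL27 and ATPsynC they ran from -0.03 to 0.18 and from 0.00 to 0.22. Over the 44 lists, 37 had no member past the threshold, 31 medians lay within 0.1 of 0 and 7 were at least 0.2 in size.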

How the data were processed

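RNA of 9 head and thorax samples was measured on Affymetrix Drosophila Genome 2.0 arrays. The deposited values are log2 probe set levels that the authors made with GCRMA, per the submitters' processing notes; its version and the set of arrays it was run on are not given in the sources used. GCRMA models background from probe sequence, which can widen folds near the floor.

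The 183 control probe sets were left out. Symbols came from the platform annotation, looked up by gene identifier in RefSeq's gene table of Release 6 plus ISO1 MT (13543 of 13646 single-gene probe sets). The probe set with the highest mean stood for a gene. All 9 arrays entered limma's lmFit, with 1 mean for each diet, and eBayes (limma 3.58.1, R 4.3.3), adding 1.81 prior to 6 residual degrees of freedom. Adjusted p values are two-sided limma values after Benjamini-Hochberg over 8822 features. The fitting script was tested on simulated data. No set test was run: lists are given by counts and medians.

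The members and the 44 lists were chosen with earlier results of these data known. Named genes were those past the threshold, the 10 largest changes each way with groups apart, up to 3 members with the smallest p per list, and Sirt1, p53, foxo, AMPKalpha, srl, InR and the yolk protein genes, where tested. That rule chose 151 genes, and the text leaves out some of the list members among them; genes named beyond the rule were chosen after their values were seen. Alternatives changed the arrays, normalization, filter, probe set choice, variance model, array weights, threshold, minimum fold, a germline covariate and the replicate number.
The number of arrays limits the precision, and an exact permutation test of 3 against 3 cannot go below p = 0.1.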

Additional observations from a re-analysis of the deposited data

How the results depend on the processing

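The count of 20 features depended on most choices that affect the estimate of spread or the threshold. It was 4 with only the 6 arrays of the 2 diets, 10 with no filter, 43 with an intensity trend, 269 with array weights, 3 at an adjusted p under 0.01, 61 at an adjusted p under 0.10, 3 in limma's treat against 1.2-fold, and 11 with the germline covariate. With 1 array left out it ran from 2 to 9. It was 18 to 24 under quantile normalization, centring, the filters at log2 4 on 1 array and log2 6 on 3 arrays, every probe set on its own, and robust eBayes. The cause of these differences was not tested.

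The count of 9 of the 20 that also differed from the restricted diet became 4 with centring, 3 with no filter, 6 with quantile normalization, 10 with an intensity trend, 12 with array weights or at an adjusted p under 0.10, and 0 at an adjusted p under 0.01 (13 at an unadjusted limma p under 0.05) or under treat (10). With 1 array left out it ran from 0 to 9.

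Same-numbered normal-diet and resveratrol arrays had deviations from their diet means that correlated at -0.27, 0.10 and -0.33. Those of differently numbered arrays correlated at -0.23 to 0.36. Deviations of 3 arrays from their own mean depend on each other, so these values cannot show whether the replicate numbers pair the arrays. With the replicate number as a block, 1 feature passed, CG14219 (adjusted p = 0.0386), and 0 of the 20 differed from the restricted diet, 13 at an unadjusted limma p under 0.05.

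Among the genes the rule chose and the others named, the sign changed for 10. With 1 array left out, Sirt1 ran from -0.084 to 0.0034 (without normal-diet replicate 2), AMPKalpha from -0.108 to 0.0032 (without normal-diet replicate 1), foxo from -0.0166 (without normal-diet replicate 1; -0.0020 without resveratrol replicate 3) to 0.0519, and TotC from -0.0753 (without resveratrol replicate 1) to 1.61. Drs ran from -1.59 to 0.21, PGRP-SB1 from -0.81 to 0.0033 and Ssk from -0.116 to 0.19, each of them turned by leaving out normal-diet replicate 2. TwdlG ran from -0.22 to 0.0355 (without normal-diet replicate 1) and PGRP-LF from -0.0017 (without resveratrol replicate 3) to 0.44. With centring, foxo had -0.0121 and Ssk -0.0065. TotC had -0.20 with array weights, Ssk -0.0182 and Acp95EF -0.0418 with the germline covariate, and Acp95EF -0.0128 with quantile normalization.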

Other observations

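Some genes that did not pass against the normal diet had resveratrol levels outside both other diets. They were chosen after their values were seen, and the test against the restricted diet shares the resveratrol arrays. Hr38, a nuclear receptor gene whose transcript rises with neuronal activity, stood at 7.56, 7.84 and 7.28 on the normal diet and at 8.15, 8.42 and 8.61 with resveratrol, a change of 0.83 (adjusted p = 0.179), and was higher than on the restricted diet by 1.23 (adjusted p = 0.0390). On the lower side, CG32425 stood at 13.28, 13.17 and 13.37 against 12.81, 12.76 and 12.67, a change of -0.53 (adjusted p = 0.0746), and CG11529 at 5.84, 5.83 and 5.62 against 5.11, 5.32 and 5.05, a change of -0.60 (adjusted p = 0.0794). Both were also lower than on the restricted diet, by -0.57 and -0.92 (adjusted p = 0.0390 and 0.0276).

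A further 41 features had an adjusted p from 0.05 to 0.10, 22 higher and 19 lower with resveratrol. The higher ones included the lipase gene Lip2 (0.70, adjusted p = 0.0753) and CG10182 (3.63, adjusted p = 0.0950). The lower ones included LKRSDH, an enzyme of lysine breakdown (-0.80, adjusted p = 0.0822), Prat2, which starts purine synthesis (-0.51, adjusted p = 0.0924), and P5cr-2, an enzyme of proline synthesis (-0.47, adjusted p = 0.0924).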
